A study of Mus musculus with 6 samples.

Results

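The 33 genes described here encode the glucose and lactate transporters, the enzymes of glycolysis and the components and targets of the hypoxia response. They were chosen by gene symbol from a list of names, without a rule on measured values but with earlier results of these data known. All 33 were found on exactly 1 row each among the 25509 gene rows of the deposited count table. They fall into 22 glycolysis genes and 11 hypoxia genes. The RNA came from peritoneal macrophages of C57BL/6 mice, 3 libraries from WT mice and 3 from mice labelled JWT (Tg-ACE), a line described in the series title as overexpressing angiotensin-converting enzyme (ACE). The labels give neither the promoter nor the cell type that drives the transgene, and no age or sex. All mice of both genotypes had received thioglycollate, an irritant that recruits macrophages, into the peritoneal cavity. The cells were taken on day 4, enriched on a Percoll density gradient and left to adhere in culture medium for 2 h before RNA was made. Sample descriptions carry the code Exp-156 for replicate 1 of each genotype (2 libraries) and Exp-156b for replicates 2 and 3 (4 libraries), without saying what the codes mean. The labels do not say that the libraries of a genotype were made from different animals, and p-values below therefore cover only the spread between these libraries.

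Glycolysis converts glucose to pyruvate in the cytosol, and macrophages that turn pyruvate into lactate export it through monocarboxylate transporters. Hypoxia-inducible factor 1 alpha (HIF-1 alpha) is held low by prolyl hydroxylases, which need oxygen to mark it for destruction. When oxygen falls, or when inflammatory signals stabilise the factor in macrophages, it pairs with ARNT, binds DNA at sites with the core ACGTG or GCGTG and activates genes for glucose uptake, glycolysis, lactate export and its own prolyl hydroxylases.

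The 6 libraries held between 24294258 and 28120394 counts. The codes set the libraries further apart than genotype: in edgeR the biological coefficient of variation was 0.108 with code and genotype in the fit and 0.31 with genotype alone, and 43.2% of the 13256 genes tested differed between the codes. Levels are given as CPM, counts scaled to the library total after normalisation by edgeR's trimmed mean of M-values (TMM). The X-inactivation RNA Xist had 0.41 and 0.53 CPM in the Exp-156 libraries against 327 to 455 CPM in the Exp-156b libraries, and the Y-linked Ddx3y at 47.8 and 51.4 CPM against 0.11 CPM or less, so the codes also differ by sex-linked genes. Ace, the gene the transgene should raise, stood at 16.7, 7.61 and 11.6 CPM in WT replicates 1 to 3 and at 100.4, 25.7 and 31.8 CPM in Tg-ACE (log2 difference 1.95, edgeR quasi-likelihood test, Benjamini-Hochberg adjusted p = 0.13). The macrophage markers Lyz2 (14309 to 18042 CPM) and Cd68 (1956 to 2220 CPM) were abundant in all 6 libraries. Neither passed the test between the codes, but 6 of the 9 macrophage marker rows were lower in Exp-156b, against 23.4% of all genes. Among these 6 were 2 overlapping rows of the gene Itgam, 1 of them at 4.24 CPM or less. Since these are bulk samples, fewer cells of a type and less RNA per cell cannot be told apart.

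All 33 genes passed the filter on low counts. Levels were compared between genes per kilobase of exon, with all annotated exons of a gene joined. This length can exceed that of the transcript made, so the order of genes also depends on the annotation. It was 1982 bases for Pgam1, 4133 for Gapdh and 5379 for Eno1. Per kilobase the 3 highest were enzymes of glycolysis. Pgam1, phosphoglycerate mutase, reached 396 ± 14.2 CPM per kilobase (mean ± SD, n = 6), Aldoa, the main aldolase, 360 ± 33.6 and Pkm, pyruvate kinase, 279 ± 23.0. Next came the hexokinase gene Hk3 with 237 ± 29.8 and the lactate dehydrogenase gene Ldha with 221 ± 70.3 CPM per kilobase. The lowest were the transporter gene Slc2a3 (1.71 ± 1.95), the muscle phosphofructokinase gene Pfkm (2.47 ± 0.31) and the second aldolase gene Aldoc (3.25 ± 0.63). The SD of Slc2a3 exceeded its mean, whereas Pgam1 varied little. In the plot of all 33 genes by library, the Exp-156 points separate to the right of the Exp-156b points for most genes and the genotypes interleave.

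**Figure D1:**
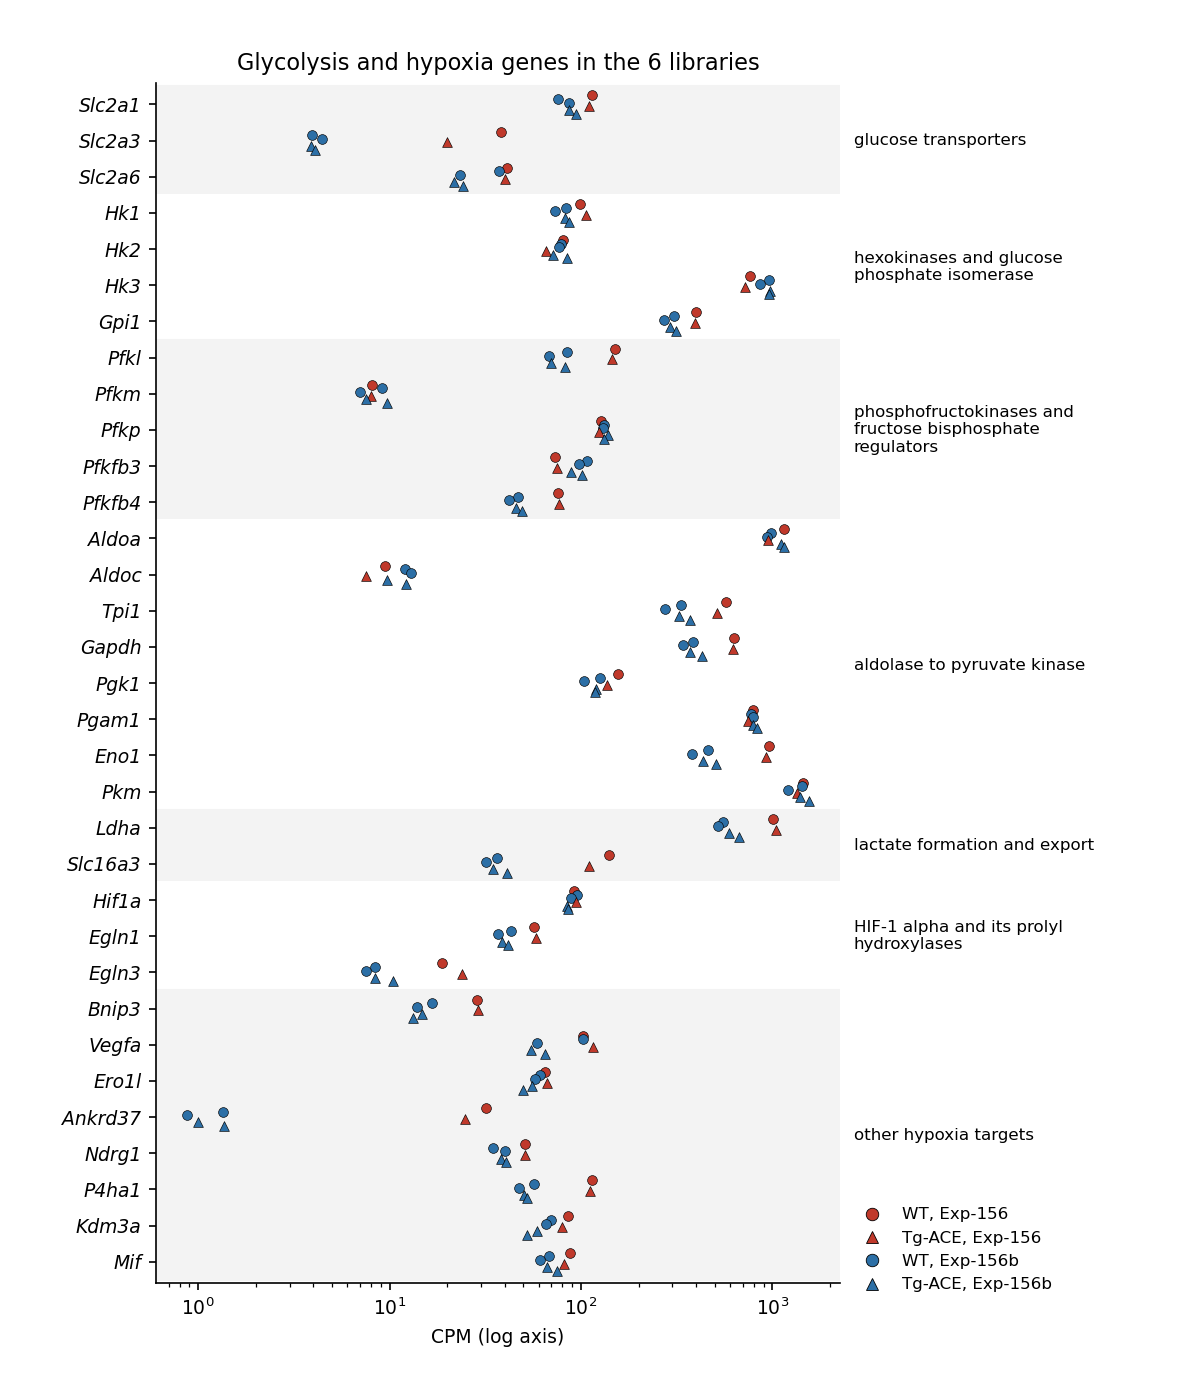
CPM of each gene (log axis) in the 6 libraries, grouped by role; circles are WT, triangles Tg-ACE, red Exp-156 and blue Exp-156b, 1 point per library. Ankrd37, Slc2a3 and Slc16a3 show the widest gap between red and blue points, and Pgam1 and Hif1a show none.

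The series was designed to compare Tg-ACE with WT macrophages. With the code as a term, edgeR's quasi-likelihood test called 0 of the 33 genes at an adjusted p under 0.05, against 2 of 13256 genes overall (0.0151%). DESeq2 and limma-voom also called 0 of the 33. The log2 differences of Tg-ACE minus WT ran from -0.45 to 0.279, with standard errors from 0.059 to 0.211, and their medians were 0.04 over the 22 glycolysis genes and -0.07 over the 11 hypoxia genes, against -0.01 over all genes. At an unadjusted p under 0.05 there were 3 of 33 genes (9.09%), against 860 genes overall (6.49%), so the share lies near the background. The groups did not separate completely for any of the 33 genes, against 4.78% of all genes. Since each genotype holds both codes, a gene that differs more by code than by genotype cannot separate, so this count says little about genotype.

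The 3 genes were Slc2a3, Egln3 and Kdm3a. Slc2a3, which encodes the glucose transporter GLUT3, stood at 38.2, 3.95 and 4.46 CPM in WT replicates 1 to 3 and at 19.9, 3.87 and 4.07 CPM in Tg-ACE. Only the Exp-156 libraries differed visibly between genotypes, and in Exp-156b all 4 values lay within about the same narrow range. Its log2 difference was -0.45 (SE 0.187; unadjusted p = 0.0439, edgeR adjusted p = 0.761). Egln3, a prolyl hydroxylase that is itself a HIF target, stood at 18.7, 8.43 and 7.56 CPM in WT and at 23.99, 8.34 and 10.4 CPM in Tg-ACE. Its values overlapped between genotypes within Exp-156b, and the log2 difference was 0.28 (SE 0.118; unadjusted p = 0.0465, edgeR adjusted p = 0.765). Kdm3a, a histone H3 lysine 9 demethylase induced by HIF, stood at 85.6, 69.8 and 65.8 CPM in WT and at 79.3, 58.7 and 52.0 CPM in Tg-ACE. Within each code Tg-ACE was the lower, though the genotypes overlapped over all 6 libraries. The log2 difference of Kdm3a was -0.23 (SE 0.077; unadjusted p = 0.0173, edgeR adjusted p = 0.76).

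Whether the genotype difference depended on the code was tested as an interaction. Its 2 residual degrees of freedom come from Exp-156b alone, and the lone Exp-156 library of each genotype is assumed to vary like the others. edgeR called 0 of the 33 genes and 0 of 13684 genes tested (0%), and DESeq2 called 0 of the 33. At an unadjusted p under 0.05 there were 3 of the 33, against 7.19% of all genes. For Slc2a3 the log2 genotype difference was -0.94 in the Exp-156 pair and -0.08 in the Exp-156b libraries (difference 0.87, SE 0.21, unadjusted p = 0.00554, edgeR adjusted p = 0.69). For Aldoa it was -0.27 and 0.23 (unadjusted p = 0.0083), and for the lactate exporter Slc16a3 it was -0.35 and 0.15 (unadjusted p = 0.0323). The genotype difference had the same sign in both codes for 11 of the 33 genes and for 5962 of the 12834 genes with a value in both codes.

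Between the codes the picture differed. In edgeR, 22 of the 33 genes were lower in Exp-156b than in Exp-156 and 3 were higher, so that 25 (75.8%) passed at an adjusted p under 0.05, against 43.2% of all genes. By direction, the 66.7% that were lower compare with 23.4% of all genes, and the 9.09% that were higher with 19.8%. The lower genes were led by the HIF target Ankrd37, the transporters Slc2a3 and Slc16a3, the prolyl hydroxylase Egln3, the collagen prolyl hydroxylase P4ha1 and the enolase Eno1. These 6 fell beyond 1 on the log2 scale, which 8.25% of all genes did. The median log2 difference of Exp-156b minus Exp-156 was -0.35 over the glycolysis genes, -0.51 over the hypoxia genes and -0.01 over all genes. Of the 22 glycolysis genes 13 were lower and 3 higher, and of the 11 hypoxia genes 9 were lower and 0 higher. The groups did not overlap for 26 of the 33 genes, against 60% of all genes; 22 lay lower in Exp-156b (31.1% of all genes) and 4 higher (28.9%). These comparisons set 2 libraries against 4. The number called was 16 when WT replicate 1 was left out and 19 when Tg-ACE replicate 1 was left out, and all 25 genes kept their direction in each of the 17 alternative analyses. In 14 the call held in every one: Ankrd37, Bnip3, Egln1, Egln3, Eno1, Gapdh, Gpi1, Ldha, P4ha1, Pfkfb4, Pfkl, Slc16a3, Slc2a3 and Tpi1.

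**Figure D2:**
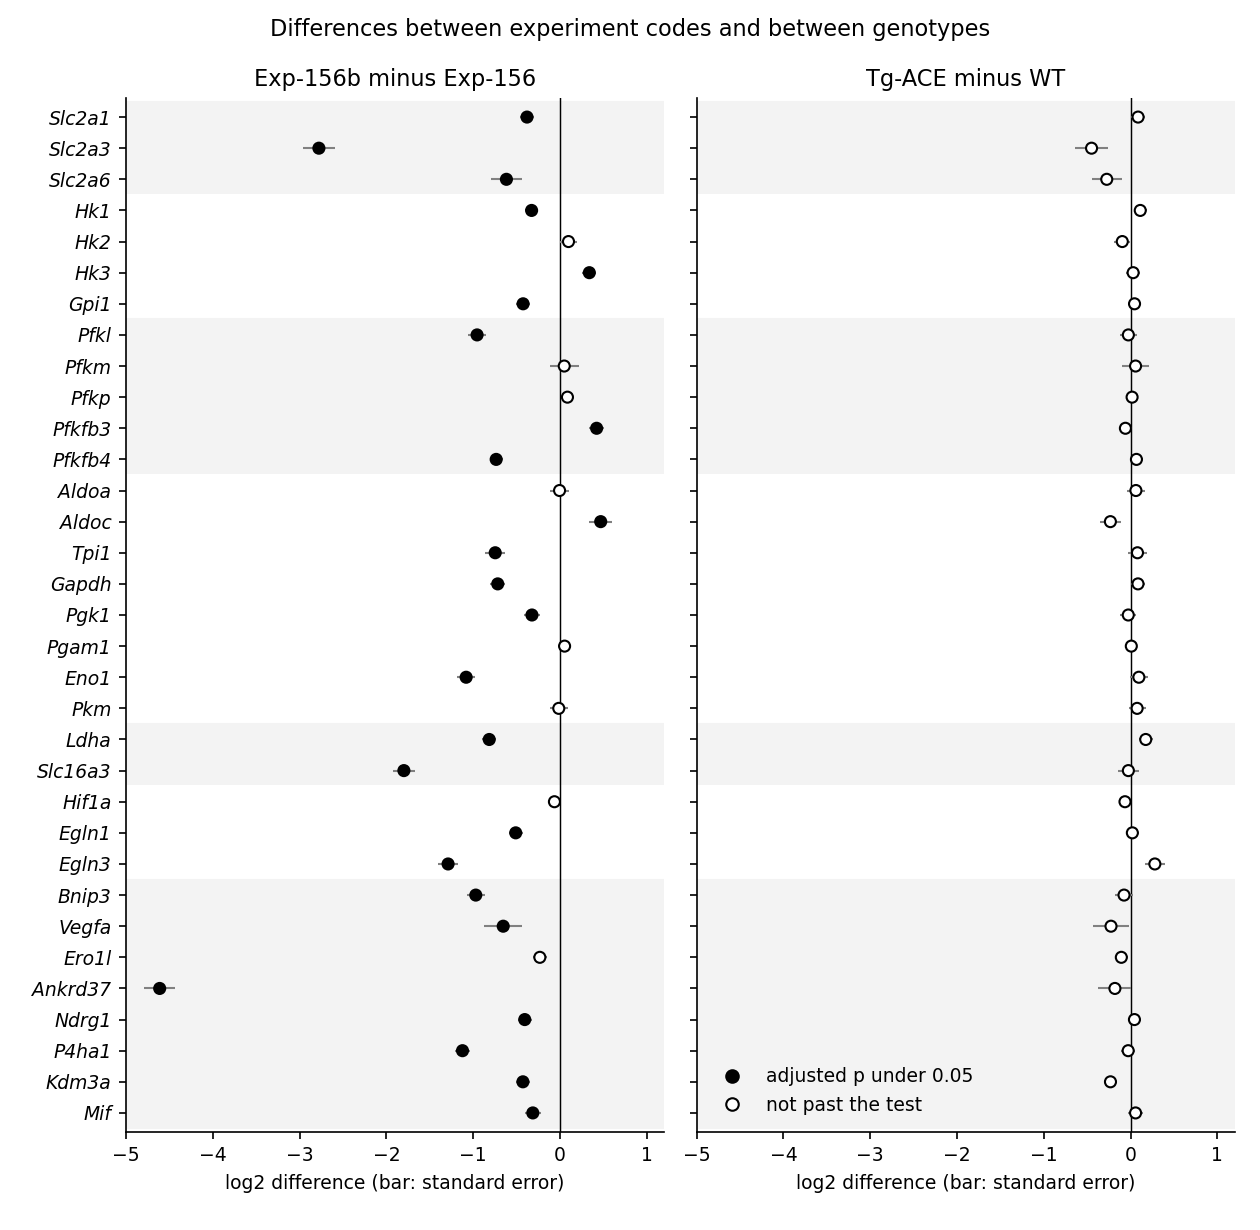
Log2 differences (points) with standard errors (bars) of Exp-156b minus Exp-156 (left) and Tg-ACE minus WT (right) for the 33 genes on the same scale; filled points have an edgeR adjusted p under 0.05. On the left 22 filled points lie below 0 and 3 above, and on the right no point is filled.

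Glucose enters through the Slc2a transporters, and the 3 among the 33 genes were lower in Exp-156b. Of 3 other Slc2a genes tested from the list of further glycolysis genes, Slc2a9 was lower as well (log2 difference -0.79, edgeR adjusted p = 0.00522), and Slc2a8 (-0.14, 0.229) and Slc2a4 (1.01, 0.15) did not pass. The 2 Exp-156 libraries held 38.2 and 19.9 CPM of Slc2a3 and the 4 Exp-156b libraries only 3.87 to 4.46 CPM, with no overlap. Its mean was 7.11 times higher in Exp-156 (log2 difference -2.78, SE 0.181, edgeR adjusted p = 3.6e-05). Slc2a1, the widely expressed transporter GLUT1 and the highest of the 3 members per kilobase (26.9 ± 4.15 CPM per kilobase), changed far less. It stood at 113.6, 76.1 and 86.1 CPM in WT and at 109.4, 86.4 and 94.4 CPM in Tg-ACE, the 2 Exp-156 libraries being the highest (log2 difference -0.38, SE 0.085, edgeR adjusted p = 0.00874). Slc2a6, an intracellular hexose transporter of macrophages, had a log2 difference of -0.62 (edgeR adjusted p = 0.0244). Without WT replicate 1 the adjusted p of Slc2a1 was 0.104 and that of Slc2a6 0.0637. The Slc2a6 call was also lost without Tg-ACE replicate 1 (0.255), 2 (0.0665) or 3 (0.0567).

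The hexokinases trap glucose as glucose 6-phosphate, and here the isozymes went in different directions. Hk3, the predominant hexokinase of these cells per kilobase, was higher in Exp-156b. It stood at 764, 956 and 860 CPM in WT and at 718, 969.7 and 961 CPM in Tg-ACE. The 2 Exp-156 libraries were the lowest without overlap, and WT replicate 3 lay apart from the other 3 Exp-156b libraries (log2 difference 0.34, SE 0.082, edgeR adjusted p = 0.013; 0.128 without Tg-ACE replicate 1). Hk1 was lower in Exp-156b (-0.33, adjusted p = 0.00995; 0.0668 and 0.0637 when replicate 1 of WT or of Tg-ACE was left out). Hk2, the HIF-inducible hexokinase, gave 0.10 (SE 0.098, adjusted p = 0.454). Gpi1, glucose phosphate isomerase, which makes fructose 6-phosphate, was lower in Exp-156b (-0.43, adjusted p = 0.00355).

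Phosphofructokinase commits the sugar to glycolysis, and the Pfkfb enzymes set the level of its activator fructose 2,6-bisphosphate. Pfkl, the liver-type phosphofructokinase, stood at 150.6, 84.9 and 68.2 CPM in WT and at 145.2, 69.8 and 82.1 CPM in Tg-ACE. Both Exp-156 values lay well above the other 4, and the log2 difference was -0.96 (SE 0.102, edgeR adjusted p = 3.28e-04). The platelet-type Pfkp (0.08, adjusted p = 0.309) and the muscle-type Pfkm (0.05, adjusted p = 0.836) did not pass the test.

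The 2 Pfkfb genes went in opposite directions. Pfkfb4 stood at 76.0, 46.7 and 42.1 CPM in WT and at 76.8, 45.7 and 49.1 CPM in Tg-ACE, so it was lower in all 4 Exp-156b libraries (log2 difference -0.74, SE 0.073, edgeR adjusted p = 2.26e-04). Pfkfb3, the form with the strongest kinase activity, was higher in Exp-156b (0.42, SE 0.086, adjusted p = 0.00593; 0.0725 without WT replicate 1).

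From aldolase to pyruvate kinase, 4 of 8 genes were lower in Exp-156b, 1 was higher and 3 did not pass. Eno1, the main enolase of these cells, stood at 957, 461 and 381 CPM in WT and at 929, 435 and 509 CPM in Tg-ACE. The Exp-156 libraries held 2.11 times the mean of the others without overlap (log2 difference -1.08, SE 0.105, edgeR adjusted p = 2.14e-04). Tpi1, triose phosphate isomerase, stood at 572, 331 and 273 CPM in WT and at 513, 323 and 369.7 CPM in Tg-ACE (log2 difference -0.75, SE 0.114, adjusted p = 0.00168). Gapdh, the dehydrogenase often used as a reference gene, stood at 629, 386 and 340.4 CPM in WT and at 623, 371 and 427 CPM in Tg-ACE. Its Exp-156 values lay above all others (log2 difference -0.72, SE 0.089, adjusted p = 6.67e-04), so it is not constant across these libraries.

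Pgam1 stood at 789.8, 771 and 786 CPM in WT and at 742, 791 and 828 CPM in Tg-ACE. Its codes overlapped, with a log2 difference of 0.05 (SE 0.073, edgeR adjusted p = 0.591). Aldoa (-0.01, SE 0.114, adjusted p = 0.969) and Pkm (-0.02, SE 0.105, adjusted p = 0.92) were close to 0 as well. Within WT and within Tg-ACE, however, Aldoa gave -0.24 and 0.27, Pkm -0.14 and 0.14 and Pgam1 -0.01 and 0.14. The 3 genes with the highest levels per kilobase thus showed no difference past the test, while their neighbours in the pathway did. Aldoc, at 7.50 to 12.9 CPM, was higher in Exp-156b (0.47, SE 0.133, adjusted p = 0.0238). Its adjusted p was 0.0868 or 0.0534 when WT replicate 1 or 3 was left out, and 0.162 when Tg-ACE replicate 1 was.

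Pgk1, the X-linked phosphoglycerate kinase gene, stood at 155.7, 125.3 and 103.6 CPM in WT and at 136.8, 119.1 and 118.7 CPM in Tg-ACE. The Exp-156 libraries were the 2 highest (log2 difference -0.32, SE 0.094, edgeR adjusted p = 0.0262). The call was lost without WT replicate 1 (-0.21, adjusted p = 0.255), WT replicate 3 (0.0505), or Tg-ACE replicate 2 (0.0514) or 3 (0.0531). Its counts are uncertain, because the processed pseudogene Pgk1-rs7 on chromosome 12 is identical to it over 1255 bases and held 53.8% to 59.95% of the sum of both. That sum was lower in Exp-156b (-0.39, SE 0.087, adjusted p = 0.00844). For Eno1 the copy Eno1b, 99.5% identical over 1736 bases, held 4.55% to 5.67%, and the sum gave -1.08 (adjusted p = 2.04e-04).

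For lactate formation and export, Ldha and Slc16a3 were lower in Exp-156b, whereas the related Ldhb and Slc16a1, described further on, were higher. Ldha, which reduces pyruvate to lactate, stood at 1008, 550.1 and 520.2 CPM in WT and at 1038, 596 and 668 CPM in Tg-ACE. The 2 Exp-156 libraries lay far above the rest (log2 difference -0.82, SE 0.083, edgeR adjusted p = 2.6e-04). Slc16a3, which encodes the lactate exporter MCT4, stood at 140.4, 36.3 and 31.9 CPM in WT and at 110.4, 34.6 and 41.2 CPM in Tg-ACE. Its mean was 3.48 times higher in Exp-156, again without overlap (log2 difference -1.80, SE 0.123, adjusted p = 4.56e-05).

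The mRNA of HIF-1 alpha itself did not pass the test between the codes. Hif1a, the highest of its role list per kilobase (15.3 ± 0.72 CPM per kilobase), stood at 91.6, 95.2 and 89.1 CPM in WT and at 93.7, 84.9 and 85.4 CPM in Tg-ACE, with the codes overlapping (log2 difference -0.07, SE 0.069, edgeR adjusted p = 0.473). HIF-1 alpha is regulated mainly as a protein, which these libraries do not measure. Of its 3 prolyl hydroxylase genes Egln3 and Egln1 were lower in Exp-156b, while Egln2 gave 0.12 (edgeR adjusted p = 0.216). Egln3 had 18.7 and 23.99 CPM in the Exp-156 libraries against 7.56 to 10.4 CPM in the others (log2 difference -1.29, SE 0.119, adjusted p = 1.66e-04). Egln1, the main oxygen-sensing hydroxylase, gave -0.51 (SE 0.08, adjusted p = 0.00191).

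Among the other hypoxia targets, Ankrd37, a small ankyrin-repeat protein, had the largest difference of all 33 genes. The Exp-156 libraries held 31.8 and 24.8 CPM of it and the Exp-156b libraries 1.35, 0.875, 0.998 and 1.36 CPM, from 22 to 38 reads per library. The mean was 24.7 times higher in Exp-156 (log2 difference -4.61, SE 0.179, edgeR adjusted p = 4.26e-06), a difference lower than that of all but 0.694% of the genes tested. P4ha1, a subunit of the enzyme that hydroxylates prolines in collagen, stood at 114.4, 56.5 and 47.4 CPM in WT and at 110.9, 50.2 and 52.5 CPM in Tg-ACE. The 2 Exp-156 libraries again stood apart (log2 difference -1.12, SE 0.081, adjusted p = 5.8e-05). Bnip3, a mitophagy receptor, stood at 28.8, 16.7 and 13.8 CPM in WT and at 28.8, 14.8 and 13.3 CPM in Tg-ACE (log2 difference -0.97, SE 0.101, adjusted p = 2.9e-04).

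The remaining targets differed less. Kdm3a, whose values are given above, had a log2 difference of -0.43 (edgeR adjusted p = 0.00412; 0.0582 without Tg-ACE replicate 1), and Ndrg1, a stress-responsive gene, one of -0.41 (adjusted p = 0.00484; 0.0545 without WT replicate 1). Mif, which encodes a cytokine and had the highest level of these targets per kilobase (98.4 ± 13.1 CPM per kilobase), stood at 87.1, 68.3 and 61.1 CPM in WT and at 81.4, 66.8 and 75.3 CPM in Tg-ACE. The Exp-156 libraries were the 2 highest (log2 difference -0.31, SE 0.089, adjusted p = 0.0241). The Mif call was lost without WT replicate 1 (-0.20, adjusted p = 0.231), WT replicate 3 (0.0692) or Tg-ACE replicate 2 (0.065). Vegfa, the angiogenic growth factor, passed (-0.66, SE 0.219, adjusted p = 0.0432) although WT replicate 2 of Exp-156b, at 102.6 CPM, reached the level of WT replicate 1 of Exp-156, at 102.3 CPM. Without Tg-ACE replicate 1 the Vegfa difference was -0.34 (adjusted p = 0.433), and the adjusted p was 0.0597 and 0.0682 when WT replicate 1 or 3 was left out and 0.11 and 0.0919 when Tg-ACE replicate 2 or 3 was; DESeq2 gave 0.122. Ero1l, an oxidase of the endoplasmic reticulum, just missed (-0.23, adjusted p = 0.0502; 0.0421 without WT replicate 2).

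Because each genotype holds both codes, the code difference can be read in WT and in Tg-ACE separately, from libraries that are not shared. Each such fit sets 1 library against 2, and the lone library is assumed to vary like the others. The difference had the same sign in both genotypes for 27 of the 33 genes (81.8%), against 80% of all genes. It passed in both for 16 of the 33, all lower in Exp-156b (48.5%), against 17% of all genes. In the WT fit alone 25.1% of all genes passed and in the Tg-ACE fit 25.8%, against 19 of the 33 in each. Ankrd37 gave -4.81 in WT and -4.38 in Tg-ACE, Slc2a3 -3.18 and -2.31, Slc16a3 -2.03 and -1.53, and Egln3 -1.22 and -1.34. The genes whose sign differed were Hk2, Pfkm, Aldoa, Pgam1, Pkm and Hif1a, none of which passed in either genotype. In the plot of the WT against the Tg-ACE difference, Slc2a3 lies furthest from the line of equality.

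**Figure D3:**
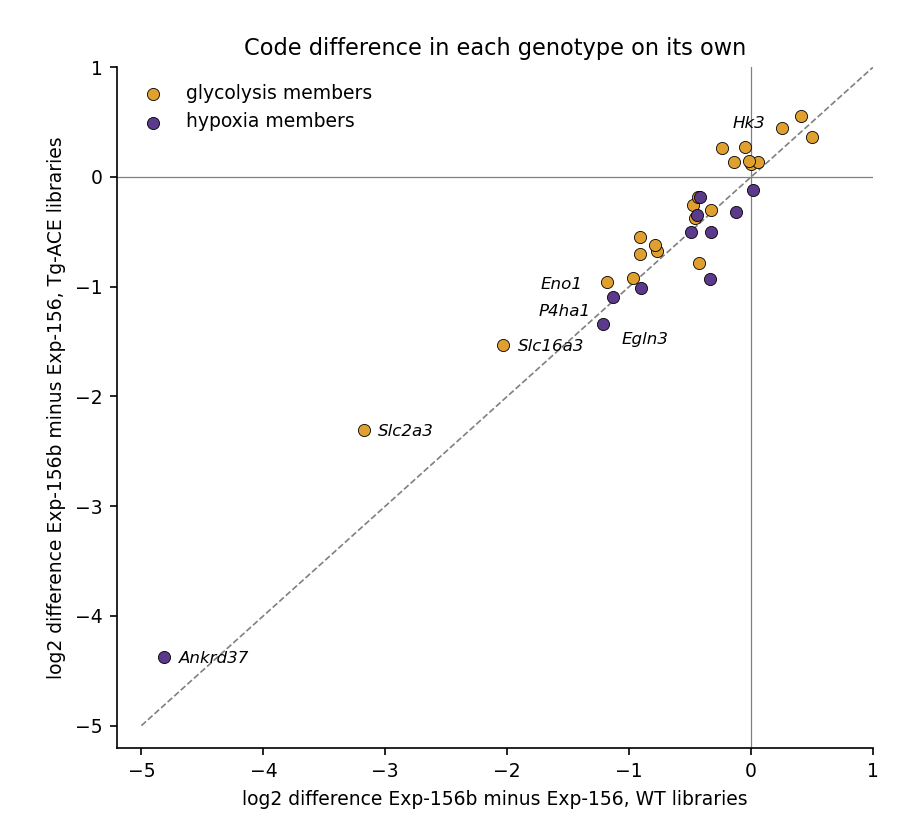
Log2 difference of Exp-156b minus Exp-156 in the WT libraries (horizontal) and in the Tg-ACE libraries (vertical), 1 point per gene, orange for glycolysis and purple for hypoxia genes; the dashed line marks equality. Ankrd37 (-4.81 and -4.38), Slc2a3 (-3.18 and -2.31) and Slc16a3 (-2.03 and -1.53) lie far to the lower left.

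Where isozymes divide a step, the shares of several genes in their family differed between the codes. As a share of CPM per kilobase summed over the family, Eno1 made up 91.8% and 92.3% of enolase in Exp-156 and 71.6% to 76.7% in Exp-156b, while Eno2, the second enolase, made up 5.50% and 6.38% against 19.3% to 23.7%. Slc16a3 made up 83.5% and 85.8% of the 3 monocarboxylate transporters in Exp-156 and 47.2% to 56.8% in Exp-156b. Slc16a1, which encodes the transporter MCT1, took 8.65% and 9.40% against 32.5% to 39.7%. Ldhb, whose subunit favours the return of lactate to pyruvate, made up 2.499% and 3.43% of lactate dehydrogenase in Exp-156 and 8.76% to 10.97% in Exp-156b.

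Upstream, Pfkl made up 65.1% and 65.5% of phosphofructokinase in Exp-156 and 45.5% to 50.2% in Exp-156b, with Pfkp taking most of the balance. These shares depend on the joined exon lengths, 6675 bases for Pfkl and 13401 for Pfkp. In CPM without length, Pfkl had the higher mean in Exp-156 (147.9 against 125.7) and Pfkp in Exp-156b (133.3 against 76.2). Among the Pfkfb genes, Pfkfb4 was the larger in Exp-156 (55.2% and 56.2%) and Pfkfb3 in Exp-156b (50.6% to 54.2%). Egln3 made up 16.9% and 21.3% of the prolyl hydroxylases in Exp-156 and 8.77% to 11.2% in Exp-156b, while Egln2 was the largest in all 6 libraries (40.7% to 59.7%). Hexokinase changed little, with Hk3 at 89.3% in both Exp-156 libraries and 91.5% to 92.4% in Exp-156b. The shares of Slc2a1 among the glucose transporters (54.1% and 56.1% against 52.65% to 63.1%) and of Slc2a6 (21.3% and 22.4% against 17.1% to 28.2%) overlapped between the codes, as did those of Pfkfb1 and Pfkfb2 in their family.

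**Figure D4:**
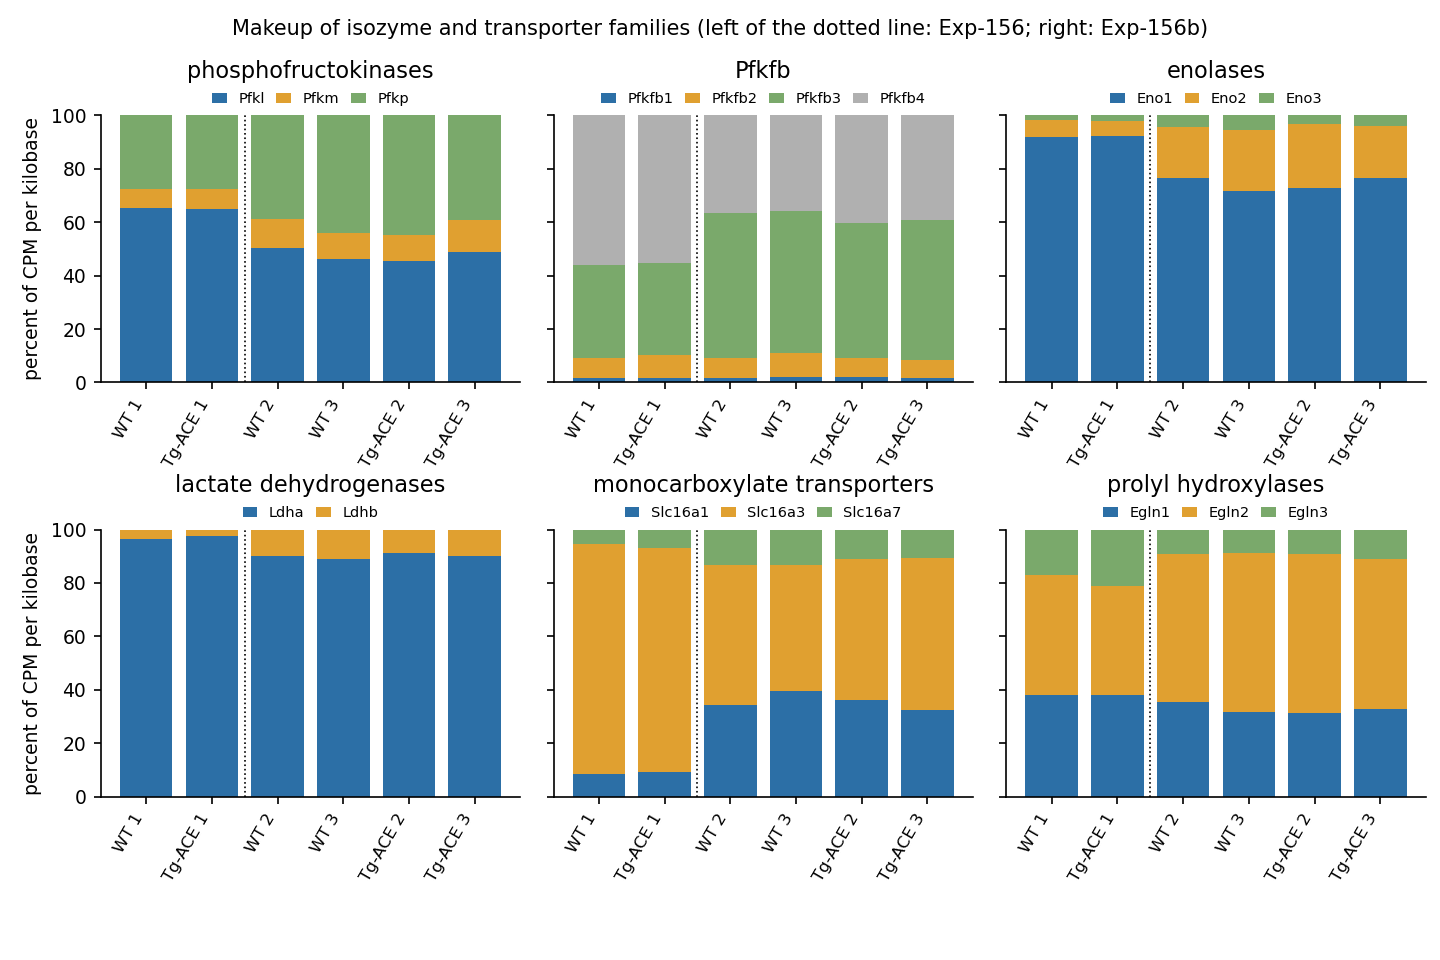
Share of each gene in the CPM per kilobase of its family, 1 stacked bar per library, Exp-156 left and Exp-156b right of the dotted line. The Exp-156b bars show smaller shares of Pfkl, Pfkfb4, Eno1, Ldha, Slc16a3 and Egln3 than the Exp-156 bars.

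Other genes of the same pathways moved in both directions, and the counts that follow can be read against all genes, of which 19.8% were higher and 23.4% lower in Exp-156b. Of 21 further glycolysis and lactate genes tested, 7 were higher in Exp-156b and 1 lower, with a median log2 difference of 0.13. Eno2 gave 1.06 (edgeR adjusted p = 3e-04), Ldhb 1.04 (0.00137), Slc16a1 0.88 (3.64e-04) and G6pc3, a glucose 6-phosphatase, 0.45 (0.0023). In the pentose phosphate pathway, which branches from glucose 6-phosphate and makes NADPH, 3 of 9 were higher and 1 lower. Taldo1, transaldolase, gave 0.65 (0.00277), Pgd 0.43 (0.00501), G6pdx, its first dehydrogenase, 0.42 (0.00429) and Rpia, ribose phosphate isomerase, -0.43 (0.00364).

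Of 13 genes for the entry of pyruvate into mitochondria, 5 were higher and 2 lower. Pdk1, the HIF-induced kinase that switches pyruvate dehydrogenase off, had 61.8 and 55.5 CPM in the Exp-156 libraries against 25.5 to 28.2 CPM in the others (log2 difference -1.11, edgeR adjusted p = 2.79e-05). The opposing phosphatase Pdp1 gave 0.50 (0.00384), the pyruvate carrier Mpc1 0.36 (0.00672) and Pdhb, a dehydrogenase subunit, 0.30 (0.0108). Of 13 genes of the HIF machinery, 3 were higher and 2 lower. Cited2, a HIF-induced inhibitor of HIF, gave -1.06 (1.21e-04) and the coactivator Ep300 -0.36 (0.0178), while Arnt2 gave 2.14 (0.00236) from 0.571 to 4.10 CPM and Rbx1, of the ubiquitin ligase that removes HIF-1 alpha, 0.26 (0.0238). Epas1, which encodes HIF-2 alpha, gave 0.44 (0.0312).

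Of 36 further hypoxia targets tested, 9 were higher in Exp-156b and 10 lower, with a median of -0.04. Narf gave -1.998 (edgeR adjusted p = 4.26e-06), Selenbp1, a selenium-binding protein, -1.43 (1.28e-04) and Rbpj, the DNA-binding factor of Notch signalling, -1.23 (1.06e-04), whereas Bhlhe41, a transcriptional repressor, gave 1.65 (5.87e-06). The further targets thus held similar numbers of higher and lower genes. Beyond 1 on the log2 scale 7 were higher and 4 lower, against 738 and 1093 of all 13256 genes. Between genotypes 0 genes of these 5 lists passed in edgeR. Those with the smallest unadjusted p in each list included Pgm2 (log2 difference 0.18, unadjusted p = 0.0515) and Galk1 (0.19, 0.0659) for sugar entry, Pgls (0.11, 0.132) and Tkt (0.10, 0.23) for the pentose phosphate pathway, and Pdk1 (-0.10, 0.182) and Pcx (0.35, 0.182) for pyruvate. For the HIF machinery they were Crebbp (-0.21, 0.024) and Epas1 (0.31, 0.0377), and for the targets Plod1 (0.18, 0.0215) and Bhlhe40 (-0.17, 0.0419).

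Markers of other cells moved with the codes, where 23.4% of all genes were lower and 19.8% higher in Exp-156b. Over the 11 neutrophil markers the summed level was 807 and 352 CPM in the WT and Tg-ACE libraries of Exp-156 against 102 to 111 CPM in the Exp-156b libraries, and 5 of the 8 tested were lower in Exp-156b. Retnlg (437 and 128 CPM against 1.23 CPM or less) and Mmp9 (220.0 and 79.1 against 9.39 to 14.8 CPM) carried most of the difference, whereas Ly6g and Camp, defining neutrophil genes, were at or near 0 in all 6 libraries. Over the 8 eosinophil and mast cell markers the sum was 282 and 128 against 18.1 to 35.7 CPM, with all 6 tested lower and Epx at or near 0. Over the 6 dendritic cell markers it was 61.7 and 47.8 against 5.35 to 9.74 CPM (5 of 6 lower), and over the 8 T and NK cell markers 16.7 and 12.7 against 3.49 to 6.61 CPM (7 of 8 lower).

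B cell markers overlapped (106.6 and 135.3 against 62.5 to 142.9 CPM; 1 of 7 lower). Red cell and platelet markers summed to 6.81 and 6.28 CPM in Exp-156 against 0.889 to 1.48 CPM, most of it in every library from the platelet gene Itga2b, the 1 gene tested (-2.21). The 8 mesothelial and fibroblast markers were lower in Exp-156 (225 and 243 against 276 to 574 CPM; 5 of 8 higher in Exp-156b and 1 lower). The summed macrophage markers overlapped (21413 and 21545 against 18065 to 22035 CPM), but Lyz2 alone held 14309 to 18042 CPM of these sums. Of the 9 rows 6 were lower in Exp-156b, among them both overlapping rows of Itgam (-1.78 and -1.77) and Adgre1 (-1.22), and 0 were higher. Immediate early genes, which answer stimulation within minutes, summed to 2048 and 1728 CPM in Exp-156 and to between 897 and 978 CPM in Exp-156b, with 8 of 10 lower and 1 higher. Genes of lipopolysaccharide-type activation summed to 121.5 and 92.5 CPM in Exp-156 and to between 46.6 and 65.3 CPM in Exp-156b. Of the 7 tested 4 were lower, led by Il1b (-5.31) and the chemokine gene Cxcl2 (-5.19), and 1 was higher, Il1a (0.34). Within Exp-156 the WT library held 1.92 times the Slc2a3 of the Tg-ACE library, 1.27 times the Slc16a3, 1.28 times the Ankrd37 and 0.779 times the Egln3. It was the higher of the 2 libraries for 23 of the 33 genes and the lower for 10, against 6814 and 6435 of all 13256 genes tested. It also held 3.41 times the Retnlg, 2.78 times the Mmp9 and 2.64 times the eosinophil receptor gene Ccr3. The part of these markers in the differences of the 33 genes was not tested, and that of sex cannot be told apart from the code.

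**Figure D5:**
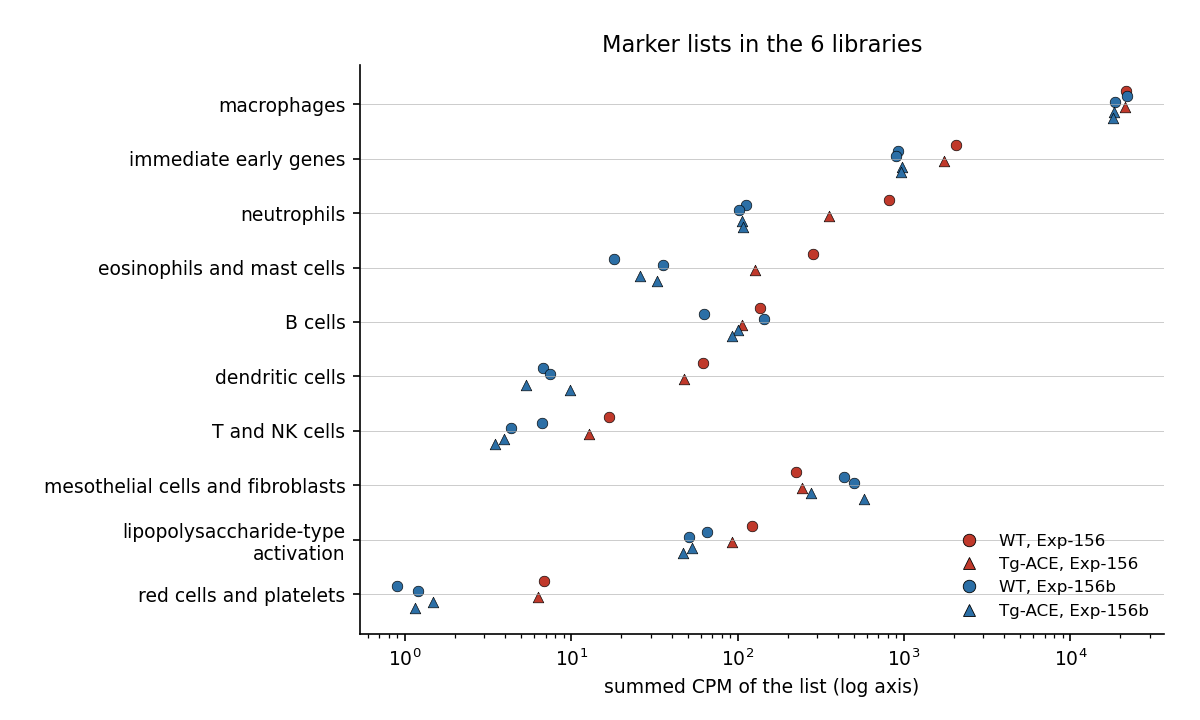
Summed CPM of each marker list (log axis) in the 6 libraries, symbols and colours as in the plot of the 33 genes. The neutrophil, eosinophil and mast cell, dendritic, T and NK cell, red cell and platelet, immediate early and activation sums are higher in both Exp-156 libraries than in any Exp-156b library. The macrophage sums, which are mostly Lyz2, and the B cell sums overlap.

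The promoters of these genes can be read for ACGTG, one form of the HIF core motif. In RefSeq windows of the GRCm38.p6 build, from 250 bases before to 50 after an annotated start, ACGTG on either strand was found in at least 1 window of 23 of the 31 genes with a window (74.2%). The same was true of 28.8% of 9945 tested genes. The list was chosen by name and holds known HIF targets, so this comparison describes the list and is not a result of the libraries. By window ACGTG was found in 26 of the 46 windows of the 31 genes (56.5%) and in 19.6% of all 32851 windows. The other form, GCGTG, was in a window of 20 of the 31 genes (64.5%) and of 55.1% of the tested genes. ACGTG was present in 14 of 21 glycolysis genes and 9 of 10 hypoxia genes. In Hk1, Aldoc, Gapdh and Mif it lay only after the annotated start. The only Vegfa match, at -211, lay in a window with 218 of its 250 upstream bases in annotated exons, and the other Vegfa window held none. By call, ACGTG was held by 13 of 20 genes lower in Exp-156b (65%), 3 of 3 higher and 7 of 8 not called (87.5%), against 27.2%, 30.1% and 29.1% of all tested genes with those calls. In Ldha, Bnip3, Hif1a, Pfkm and Pfkfb3 some matches overlap CACGTG, a site bound by other factors, and count on both strands. Slc2a3 and Ndrg1 had no window.

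The sequences below are the 250 bases before the start, read 5′ to 3′ on the strand of the gene, with matches to ACGTG on either strand in capitals. Ankrd37, Slc16a3, P4ha1 and Ldha are shown as genes lower in Exp-156b that hold the motif, Eno1 as one that was lower without ACGTG in any of its 3 windows, all of which hold GCGTG (not in capitals), and Hif1a as one that holds it without having passed. They lie at chr8:45999851-46000100 on the minus strand (Ankrd37) and on the plus strand at chr11:120948817-120949066 (Slc16a3), chr10:59323046-59323295 (P4ha1), chr7:46845554-46845803 (Ldha, the first of 2 windows), chr4:150236458-150236707 (Eno1, the first of 3) and chr12:73907617-73907866 (Hif1a).
Ankrd37: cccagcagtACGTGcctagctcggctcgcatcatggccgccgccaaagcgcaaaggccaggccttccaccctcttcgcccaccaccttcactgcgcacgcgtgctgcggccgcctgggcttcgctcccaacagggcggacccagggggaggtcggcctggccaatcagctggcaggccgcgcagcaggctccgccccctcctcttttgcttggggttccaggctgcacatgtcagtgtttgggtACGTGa
Slc16a3: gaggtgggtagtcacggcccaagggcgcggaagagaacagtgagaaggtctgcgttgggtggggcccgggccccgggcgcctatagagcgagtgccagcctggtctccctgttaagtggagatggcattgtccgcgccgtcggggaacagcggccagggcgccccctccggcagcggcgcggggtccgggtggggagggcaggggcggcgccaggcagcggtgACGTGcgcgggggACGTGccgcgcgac
P4ha1: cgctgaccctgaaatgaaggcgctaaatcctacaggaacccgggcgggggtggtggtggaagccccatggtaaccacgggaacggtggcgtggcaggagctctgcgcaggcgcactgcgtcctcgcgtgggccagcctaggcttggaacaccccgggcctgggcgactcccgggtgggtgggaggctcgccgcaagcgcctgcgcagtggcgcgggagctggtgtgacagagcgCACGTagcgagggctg
Ldha: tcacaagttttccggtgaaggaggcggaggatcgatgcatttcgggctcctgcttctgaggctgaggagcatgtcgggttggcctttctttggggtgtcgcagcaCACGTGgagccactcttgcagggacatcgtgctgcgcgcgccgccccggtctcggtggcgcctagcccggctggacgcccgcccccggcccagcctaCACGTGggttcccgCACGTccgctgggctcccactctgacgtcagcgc
Eno1: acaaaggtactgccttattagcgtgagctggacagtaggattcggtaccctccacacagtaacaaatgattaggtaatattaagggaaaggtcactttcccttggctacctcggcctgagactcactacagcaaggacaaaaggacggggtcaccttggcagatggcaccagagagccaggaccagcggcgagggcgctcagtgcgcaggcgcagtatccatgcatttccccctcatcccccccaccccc
Hif1a: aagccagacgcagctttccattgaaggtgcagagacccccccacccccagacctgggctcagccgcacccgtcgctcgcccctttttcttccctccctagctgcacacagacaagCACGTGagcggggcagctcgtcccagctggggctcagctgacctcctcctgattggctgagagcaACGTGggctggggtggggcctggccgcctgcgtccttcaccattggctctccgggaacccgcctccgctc

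Counted from the start, the matches of Ankrd37 begin at -241 and -6, those of Slc16a3 at -27 and -14 and that of P4ha1 at -16. The Ldha stretch holds the most, 5 by strand at 3 places, the nearest at -34. Hif1a holds 3 by strand at 2 places and did not differ between codes or genotypes past the test. A match describes the letters and does not show that HIF binds there.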

How the data were processed

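The deposited table holds expected counts per gene, which the authors made with STAR 2.5.0 and RSEM 1.2.25, per the submitters' processing notes, which name the builds GRCh38 and mm10 without saying how each was used. The rows carry mouse gene identifiers, and 25251 of the 25509 were found in GENCODE vM21 (GRCm38), from which coordinates and exon lengths were taken. Between 11% and 11.36% of the values per library were not whole, where RSEM divided reads between genes; 7 of the 33 genes had such values. Counts were rounded. The 92 spike-in rows held 1 count in all and were left out. Symbols Emr1 and Acod1 had no row, and Itgam had 2.

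The series text calls the second group Tg-NKO and the sample labels Tg-ACE; the labels were followed. The 33 members, the pathway and marker lists and the tests were chosen with earlier results of these data known. Genes passing filterByExpr were tested with edgeR 4.0.16 (R 4.3.3), TMM factors, glmQLFit and glmQLFTest on all 6 libraries with experiment code and genotype as terms, and p-values were adjusted by Benjamini-Hochberg over all genes. The standard error is the log2 difference divided by the square root of F. CPM uses TMM-scaled totals, and log2 CPM a prior count of 2. A floor of 3 counts is 0.107 to 0.1235 CPM of the unscaled totals. Intervals and tests cover these libraries only, and read counts carry no molecular identifiers. Near-identical copies are rows whose transcript is at least 95% identical over at least 80% of its length. Alternatives used DESeq2 1.42.0 and limma 3.58.1 (voom), and the fit was tested on simulated data.

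Values per sample are given for genes with an unadjusted p under 0.05 between genotypes, the 12 with the smallest p between codes, the highest per kilobase in each of 7 role lists, and genes whose copy holds over 5%. Of each pathway list up to 4 genes are named by their p between codes and 2 by their p between genotypes. No 2 libraries agreed within sampling noise (mean chi-square per gene at least 12.8). Deviations of same-numbered libraries correlated at 0.871, 0.533 and 0.667, crossed ones of Exp-156b at 0.567 and 0.638, and 0.00799 remained for pairs 2 and 3 once the code was removed. The numbers thus follow the codes, which the fit already holds.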

Additional observations from a re-analysis of the deposited data

Results flagged for a closer look

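One value stood apart within its group. Among the 4 Exp-156b libraries, WT replicate 3 was the lowest in log2 CPM of the hexokinase gene Hk3 (860 CPM against 956, 961 and 969.7 CPM), and its gap to the nearest library was 0.883 of the whole range, above the 95% critical value of Dixon's test for 4 samples. All 33 genes were examined in this way, and about 1 in 20 groups would pass by chance.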

How the results depend on the processing

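Genotype: 0 members were called in any setting. The count over all genes was 2, and 9 without the filter, 37 in DESeq2, 6 in limma-voom and 0 with genotype as the only term, where 126 genes had an unadjusted p under 0.05. With the replicate number as a block it was 2, with 0 members, and the block changed no other call. Code: all genes called were 3553 to 5260 with 1 replicate left out (3553 without WT replicate 1, 3580 without Tg-ACE replicate 1), 3370 in WT alone and 3464 in Tg-ACE alone, against 5732. Members called were 16 to 26, and members higher 1 to 3 with 1 replicate left out and 1 in each genotype alone. Interaction: 13 genes in DESeq2 and 0 to 10 with 1 replicate left out (10 without WT replicate 3). Only members that had not passed changed sign: limma-voom gave Aldoa 7.67e-05; WT alone gave Hk2 -0.047, Pfkm -1.98e-04, Pgam1 -0.014 and Hif1a 0.014; Tg-ACE alone gave Aldoa 0.268 and Pkm 0.139. With 1 replicate left out, Aldoa ran from -0.250 to 0.247, Pkm from -0.149 to 0.118, Pfkm from -0.034 to 0.144, Hk2 from -0.055 to 0.249, Pgam1 from -0.022 to 0.122 and Hif1a from -0.141 to 0.006. The cause was not tested, beyond fewer libraries. Lowest counts (22 for Ankrd37) limit precision; the labels put a genotype at 3 libraries.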
